A study of Sus scrofa with 36 samples.

Results

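The genes described here carry MHC class I and its peptide supply in pig liver: the heavy chains HLA-E, SLA-6, SLA-7 and SLA-8, the light chain B2M, the peptide transporter subunits TAP1 and TAP2, tapasin (TAPBP) and the immunoproteasome subunits PSMB8 and PSMB9. Their array probes were found by gene name or description, and a probe was kept where 6 or more of the 36 arrays flagged it as well above background, so the rule used the scanner's background flags. All 10 genes had a kept probe, as did 10641 gene symbols in all. Of 36 probes for the 10 genes, 34 were kept, out of 44796 kept of 60305 probes on the array. Each of these 34 was well above background on 36 of 36 arrays, and the other 2 (1 for SLA-6 and 1 for PSMB8) on 0 of 36, so no probe lay close to the limit. The gene list itself was selected on earlier results of these arrays, in which HLA-E stood out between breeds and SLA-6 in the cross, and those values are given below as descriptions without a test.

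All samples were liver of castrated male growing pigs. They came from Large White (LW), Creole (CR) and crossbred (F1) animals, 12 of each breed, with 6 killed at thermoneutrality (TN, 24 °C) and 6 after heat stress (HS). The labels give 30 °C for HS whereas the growth protocol gives 32 °C for 5 days. HS pigs were killed after TN pigs, and the slaughter day, the age and the temperature of a pig cannot be told apart. Litters were shared within a breed and are not in the labels, so the p-values treat littermates as independent animals.

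MHC class I molecules display short peptides from inside the cell to CD8 T cells and natural killer cells. Proteasomes, including the interferon-induced immunoproteasome, cut proteins into peptides, the TAP1 and TAP2 transporter carries them into the endoplasmic reticulum, and tapasin holds empty class I molecules beside that transporter until a peptide binds. A heavy chain reaches the cell surface only with B2M. In liver, hepatocytes express class I at a modest level and resident macrophages, endothelial cells and lymphocytes at a higher one.

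Each probe is a stretch of 60 bases, and for polymorphic genes such as the class I chains the exact stretch matters. The probes below are those of the heavy chains that differed between breeds, shown because the SLA-8 probes disagreed with each other, together with a B2M probe from the coding part of its transcript.

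HLA-E probe 1: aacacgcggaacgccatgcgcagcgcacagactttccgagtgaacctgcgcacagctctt

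SLA-6 probe 1: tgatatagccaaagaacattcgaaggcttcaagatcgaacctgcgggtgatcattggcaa

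SLA-8 probe 1: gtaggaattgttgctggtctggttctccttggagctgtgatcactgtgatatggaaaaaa

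SLA-8 probe 2: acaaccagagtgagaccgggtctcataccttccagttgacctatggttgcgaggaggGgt

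SLA-8 probe 3: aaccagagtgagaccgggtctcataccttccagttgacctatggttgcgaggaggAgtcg

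SLA-8 probe 4: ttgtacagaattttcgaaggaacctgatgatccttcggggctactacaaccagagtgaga

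B2M probe 7: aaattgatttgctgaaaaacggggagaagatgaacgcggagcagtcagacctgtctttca

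The capitals in SLA-8 probes 2 and 3 mark the base at which they differ. These probes are shifted by 2 bases and match at 57 of 58 shared bases, with the substitution G58A counted from 1 at the 5′ end of probe 2. Probe 4 lies just upstream, since its last 15 bases are the first 15 of probe 2. Among the 25 class I heavy chain probes of the array, no other pair that included a probe of these 4 heavy chains shared a stretch of 20 or more bases at 85% identity. Whether other class I transcripts bind these probes was not tested. Of the 13 B2M probes, probes 1 and 2 have the same 60 bases and probe 3 is shifted by 1 base, so they are no independent readings. By the RefSeq gene table of Sscrofa11.1, SLA-8 (23622352 to 23625818), SLA-7 (23634731 to 23638722) and SLA-6 (23645335 to 23649342) lie side by side on chromosome 7. TAP2 (25045085 to 25056915), PSMB8 (25058456 to 25061666), TAP1 (25062772 to 25071989) and PSMB9 (25072133 to 25077508) form a second cluster there, and TAPBP (29663491 to 29673453) lies apart. B2M has 2 entries on chromosome 1, at 126837721 to 126844043 and 126865767 to 126878501. HLA-E is the array's human name and has no entry in that table.

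On the first principal component of all kept probes, LW TN replicates 1 and 6 lay at -4.83 and -3.04, away from the other LW animals at -44.2 to -24.8. F1 TN replicate 3 and F1 HS replicates 1 and 2 lay at -21.3 to -17, on the LW side. CR animals lay at 2.35 to 35.4. F1 HS replicates 3 and 4, at 33.5 and 36.9, lay at the CR end and were not set apart. The arrays lay on 5 slides. Slide 1 held 2 LW TN animals, 1 CR HS animal and 1 F1 HS animal, so its breeds and temperatures cannot be told apart, and values within slides are given for slides 2 to 5, with 8 arrays each. All 5 animals that stood apart were kept under their labels, and results are also given without them. They were picked on a component along which LW and CR animals lay apart. Leaving them out can by itself widen breed differences, so those values are no independent check of the differences. Signals below are log2 values after quantile normalization, so a difference of 1 is a doubling. A probe is called where its limma p, adjusted by Benjamini-Hochberg over all 44796 kept probes, is under 0.05. The CR and F1 comparisons share the 12 LW animals and are therefore not independent of each other.

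The member probes were mostly lower in CR and F1 than in LW and called in no temperature comparison. In CR against LW, 20 of 34 probes were called, 19 lower and 1 higher, where 26.5% of all kept probes were called (12.9% lower and 13.6% higher). In F1 against LW, 23 were called, 22 lower and 1 higher, against 18.4% of all kept probes (9.24% lower and 9.13% higher). The median difference of the 34 probes was -0.37 in both comparisons, with medians over all kept probes of 0.003 and 0.0001. B2M held 13 of the 34 probes, some of them overlapping, and gave 12 of the calls in CR and 13 in F1. Read at the brightest probe of each gene, 5 of 10 genes were called in each comparison, against 25.9% and 17.6% of all genes. The median differences of the 10 genes were -0.16 in CR and -0.22 in F1. HLA-E in both comparisons and SLA-6 in F1 are counted among these although they were selected on such values. Without the 5 animals that stood apart the counts were 18 and 24 of 34, with 33% and 32.3% of all probes called. They depended most on slide 3: without its 8 arrays 12 probes were called in each comparison, with 12.7% and 3.52% of all probes called. Without slide 4 the F1 count was 15. Across the fits without 1 slide, 3.52% to 20.3% of all probes were called in F1 against LW.

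**Figure D1:**
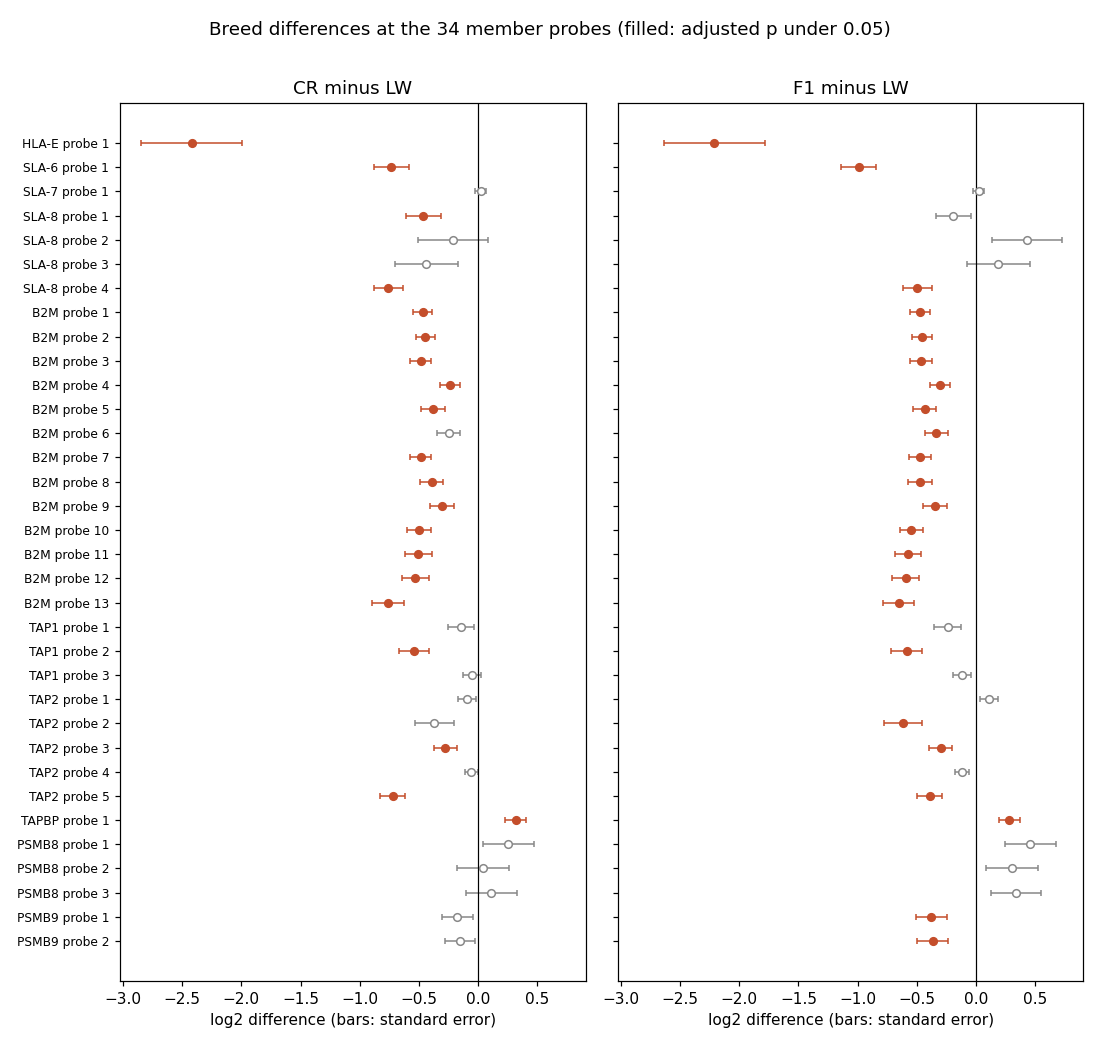
Difference of each of the 34 kept probes from LW, in log2 units, for CR and F1, with bars for the standard error and filled symbols for called probes. HLA-E lies farthest below 0, every B2M probe lies below 0, and the single TAPBP probe lies above 0 in both comparisons.

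HLA-E, a nonclassical class I chain in humans that is read by natural killer cell receptors, had the widest range of the 10 genes. Its signal in LW was 9.44, 10.66 and 11.11 (lowest, median and highest of 6 animals) in TN and 9.45, 10.36 and 11.06 in HS. In CR the values were 7.01, 7.27 and 10.1 in TN and 7.04, 7.49 and 9.53 in HS. F1 animals had 6.63, 9.38 and 9.96 in TN and 6.52, 6.77 and 9.48 in HS. Hence the LW animals were all high, whereas CR and F1 held both low animals and animals within the LW range. In all, 9 of 12 CR and 8 of 12 F1 animals lay below the lowest LW animal. The widest empty interval in CR ran from 8.35 to 9.53, with 9 animals below it, and in F1 from 6.96 to 8.2, with 5 animals below it. The LW mean was 10.37 ± 0.63, that of CR 7.95 ± 1.13 and that of F1 8.15 ± 1.44 (SD, n = 12). The difference from LW was -2.42 for CR and -2.21 for F1, or 5.36-fold and 4.64-fold lower, with a standard error of 0.427. These breed differences are a description, since HLA-E was chosen by them. Without the 5 animals that stood apart they were -2.46 and -2.12. Within slides 2 to 5 they ran from -3.09 to -1.52 for CR and from -2.53 to -1.61 for F1. The SD within groups, 1.06, was larger than that of 99.6% of kept probes, whose median was 0.19.

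**Figure D2:**
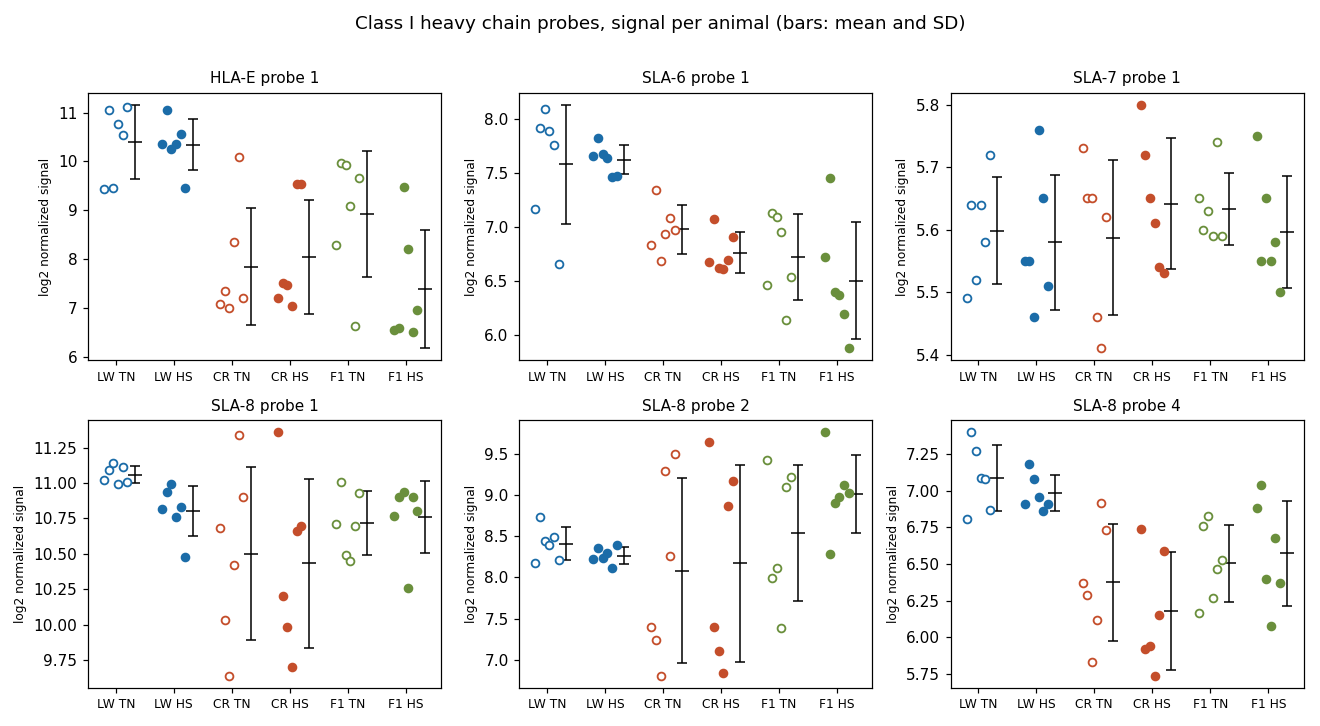
Log2 signal of 6 of the 7 kept heavy chain probes (SLA-8 probe 3 left out) in each animal by breed and temperature, with open symbols for TN, filled symbols for HS, and bars for the mean and SD of 6 animals. HLA-E is high in all LW animals and spread over several log2 units in CR and F1, SLA-6 is lower in CR and F1, and SLA-8 probe 2 is spread above and below the LW animals.

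SLA-6, a nonclassical pig class I chain, was lower in both other breeds at its only kept probe. LW animals had 6.66, 7.83 and 8.1 (lowest, median and highest of 6) in TN and 7.47, 7.65 and 7.83 in HS. CR animals had 6.69, 6.96 and 7.35 in TN and 6.61, 6.69 and 7.08 in HS, and F1 animals 6.14, 6.75 and 7.13 in TN and 5.88, 6.38 and 7.46 in HS. In 10 of 12 LW animals the value lay above every CR animal, and in 10 of 12 above every F1 animal. The difference was -0.73 with a standard error of 0.146 for CR (limma adjusted p = 0.000382). For F1 it was -0.99, given without a test because the selection used these F1 animals. Within slides 2 to 5 the CR difference was -1.05 to -0.21 and the F1 difference -1.1 to -0.87. Without the 5 animals that stood apart it was -0.90 and -1.34. The F1 mean, 6.61 ± 0.47, was below that of CR, 6.88 ± 0.227, and of LW, 7.61 ± 0.383 (SD, n = 12). It lay -0.63 from the mid-parent value, the mean of LW and CR, which is a description because SLA-6 was selected on it.

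SLA-7 showed no such pattern. Its signal was close to 5.6 in all groups, with lowest and highest animals at 5.41 and 5.8, and its CR and F1 means lay within 0.02 of LW. The SD within groups was 0.097, the smallest of the 34 probes. With a mean of 5.61 it was also the dimmest of them, against 4.99 for SLA-6 probe 2 and 5 for PSMB8 probe 4, which were not kept. A breed difference in SLA-7 could therefore be missed at this probe.

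The 4 probes of SLA-8 differed from each other. At probe 4 the LW values were 6.81, 7.09 and 7.4 in TN and 6.86, 6.93 and 7.18 in HS, against 5.83, 6.33 and 6.92 in CR TN and 5.74, 6.04 and 6.74 in CR HS. F1 animals were between these, at 6.17, 6.5 and 6.83 in TN and 6.08, 6.54 and 7.04 in HS. Below the lowest LW animal lay 11 of 12 CR and 9 of 12 F1 animals. The difference was -0.76 in CR (limma adjusted p = 2.7e-05) and -0.49 in F1 (adjusted p = 0.00529), with slides 2 to 5 giving -1.15 to -0.40 and -0.7 to -0.37. At probe 1, SLA-8 fell by 0.46 in CR (adjusted p = 0.0184) with a mean of 10.47 ± 0.578 against 10.93 ± 0.186 in LW (SD, n = 12), while the F1 difference of -0.19 was not called. Slides 2 to 5 gave -0.96 to 0.01 for CR at that probe. The CR call was lost without slide 2 (-0.39, adjusted p = 0.118) or slide 3 (-0.28, adjusted p = 0.252), and the F1 call at probe 4 without slide 3 (-0.44, adjusted p = 0.0634).

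SLA-8 probes 2 and 3 were spread more widely in CR and F1 than in LW and were not called. At probe 2 the 12 LW animals lay between 8.11 and 8.73, the CR animals between 6.81 and 9.64 and the F1 animals between 7.39 and 9.76. Of the CR animals, 6 were below and 5 above all LW animals, and of the F1 animals 2 were below and 8 above. Breed means were 8.34 ± 0.17, 8.13 ± 1.11 and 8.77 ± 0.685 for LW, CR and F1 (SD, n = 12). The differences from LW were -0.21 and 0.44, with limma adjusted p of 0.654 and 0.326. Within slides 2 to 5 they ran from -0.98 to 0.88 for CR and from -0.09 to 0.81 for F1. Probe 3 differed by -0.44 in CR and 0.19 in F1 with a standard error of 0.267 (adjusted p = 0.239 and 0.676), so a shift of the size called at probe 1 is within its error. Probe 3, which overlaps probe 2, had a correlation of 0.978 with it over 36 animals, and probe 4, just upstream, only 0.312. The correlation of SLA-8 probe 2 with HLA-E over the same animals was -0.00998.

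B2M, the light chain of every class I molecule, was lower in CR and F1 at nearly all probes. At probe 1 the values were 17.01, 17.09 and 17.29 in LW TN and 16.85, 17.11 and 17.28 in LW HS, against 16.38, 16.58 and 17.12 in CR TN and 16.31, 16.57 and 16.87 in CR HS. In F1 they were 16.42, 16.61 and 16.76 in TN and 16.41, 16.56 and 16.99 in HS. The ranges overlapped slightly, with 9 of 12 CR and 10 of 12 F1 animals below every LW animal. LW had a mean of 17.09 ± 0.126, CR of 16.63 ± 0.254 and F1 of 16.63 ± 0.211 (SD, n = 12), which gave a difference of -0.47 for each (standard error 0.0834, limma adjusted p = 0.000106 and 0.000477). On slides 2 to 5 it was -0.78 to -0.24 for CR and -0.8 to -0.26 for F1. No B2M spot was saturated.

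All 13 B2M probes had negative differences, from -0.76 to -0.24 in CR and from -0.65 to -0.30 in F1, and 12 and 13 of them were called. Probe 6 was the one not called in CR (adjusted p = 0.0605). The sign did not hold on every slide. On slide 2, probe 4 lay above LW by 0.13 in CR and 0.17 in F1, and probe 6 by 0.17 and 0.16. Both lay below LW on slides 3 to 5. Over the 78 pairs of B2M probes the correlation across 36 animals was 0.658 to 0.977, with a median of 0.901. The calls of B2M probe 4 and probe 9 in CR rested on few animals: leaving out any 1 of 11 animals ended the first (CR TN replicates 2, 3 and 4, CR HS replicates 4 and 5, LW TN replicates 4, 5 and 6, LW HS replicates 2, 4 and 5; -0.23 to -0.21, adjusted p up to 0.0725), and leaving out CR HS replicate 4 or LW TN replicate 6 ended the second (-0.27 and -0.24). In CR, B2M probes 4 and 9 also lost their call without slide 3, 4 or 5 or the 5 animals that stood apart, probe 8 without slide 3 or 5 and probe 5 without slide 3 (-0.34 to -0.19), and in F1 probes 4, 6 and 9 without slide 3, 4 or 5 (-0.35 to -0.21).

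The transporter subunits gave mixed readings. At TAP1 probe 2 the LW animals had 7.55, 7.83 and 8.31 in TN and 7.75, 7.9 and 8.1 in HS. CR animals had 6.86, 7.31 and 7.84 in TN and 7.1, 7.23 and 7.7 in HS, and F1 animals 7.03, 7.17 and 7.63 in TN and 6.79, 7.14 and 8.18 in HS. In each of CR and F1, 9 of 12 animals lay below all LW animals. The difference was -0.54 in CR (limma adjusted p = 0.00207) and -0.58 in F1 (adjusted p = 0.00255), and without slide 3 it was -0.38 and -0.47 (adjusted p = 0.0839 and 0.0554). Slides 2 to 5 gave -1.03 to -0.29 for CR and -0.97 to -0.42 for F1. Without the 5 animals that stood apart it was -0.61 and -0.86. TAP1 probe 1, the representative probe of the gene, differed by -0.14 and -0.24 and was not called, nor was probe 3. The 3 TAP1 probes correlated at 0.532 to 0.676.

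For TAP2, the partner of TAP1, probe 5 carried the largest difference in CR. That probe has a stop codon in every reading frame of both strands, and whether other transcripts bind it was not tested. LW animals had 7.16, 7.51 and 8.04 in TN and 7.29, 7.45 and 7.91 in HS, CR animals 6.29, 7.07 and 7.22 in TN and 6.54, 6.59 and 7.13 in HS, and F1 animals 7.16, 7.21 and 7.54 in TN and 6.52, 7.08 and 7.32 in HS. Here 11 of 12 CR animals and 6 of 12 F1 animals were below all LW animals. The difference was -0.72 in CR (limma adjusted p = 8e-06) and -0.39 in F1 (adjusted p = 0.0099), the latter without a call when slide 3 (-0.34) or slide 4 (-0.33) was left out. Probe 2 was called only in F1, at -0.62 (adjusted p = 0.00936; -0.55 and adjusted p = 0.0794 without slide 3). Probe 3 differed by -0.28 and -0.30 (adjusted p = 0.0339 and 0.0327), and both calls ended with the authors' table (-0.21 and -0.22, adjusted p = 0.0946 and 0.106). They also ended when 1 animal was left out: LW HS replicates 3, 4 or 5 or LW TN replicates 2 or 4 in both comparisons, CR HS 4 or 5 or CR TN 3 or 4 in the first (-0.27 to -0.22), and F1 HS 3, 4 or 6 or F1 TN 6 in the second (-0.29 to -0.24). TAP2 probe 1 differed by -0.09 and 0.11 and, like probe 4, was not called. Probe 1 also had correlations of -0.182 to -0.0579 with the other TAP2 probes, which correlated with each other at 0.409 to 0.821, so probe 1 did not follow the rest.

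TAPBP, tapasin, was the only member called higher than in LW, at its single probe. That probe has a stop codon in every forward reading frame, and whether other transcripts bind it was not tested. Its signal was 9.52, 9.92 and 10.35 in LW TN and 9.67, 9.82 and 10.01 in LW HS, against 9.89, 10.16 and 10.36 in CR TN and 10.03, 10.2 and 10.63 in CR HS. F1 animals had 9.98, 10.16 and 10.4 in TN and 9.71, 10.22 and 10.53 in HS. The ranges overlapped, with 2 CR and 3 F1 animals above all LW animals. The difference was 0.32 in CR (limma adjusted p = 0.00729) and 0.28 in F1 (adjusted p = 0.025), and 0.40 and 0.46 without the 5 animals that stood apart. The CR call was lost without slide 3 (0.31, adjusted p = 0.0705). Slides 2 to 5 gave 0.21 to 0.39 for CR and 0.20 to 0.41 for F1. The F1 call was lost with the authors' table (0.20, adjusted p = 0.0711), without slides 2, 3 or 4 (0.26 to 0.29), without F1 HS replicate 6 (0.25, adjusted p = 0.0518) and without LW TN replicate 2 (0.25, adjusted p = 0.053).

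**Figure D3:**
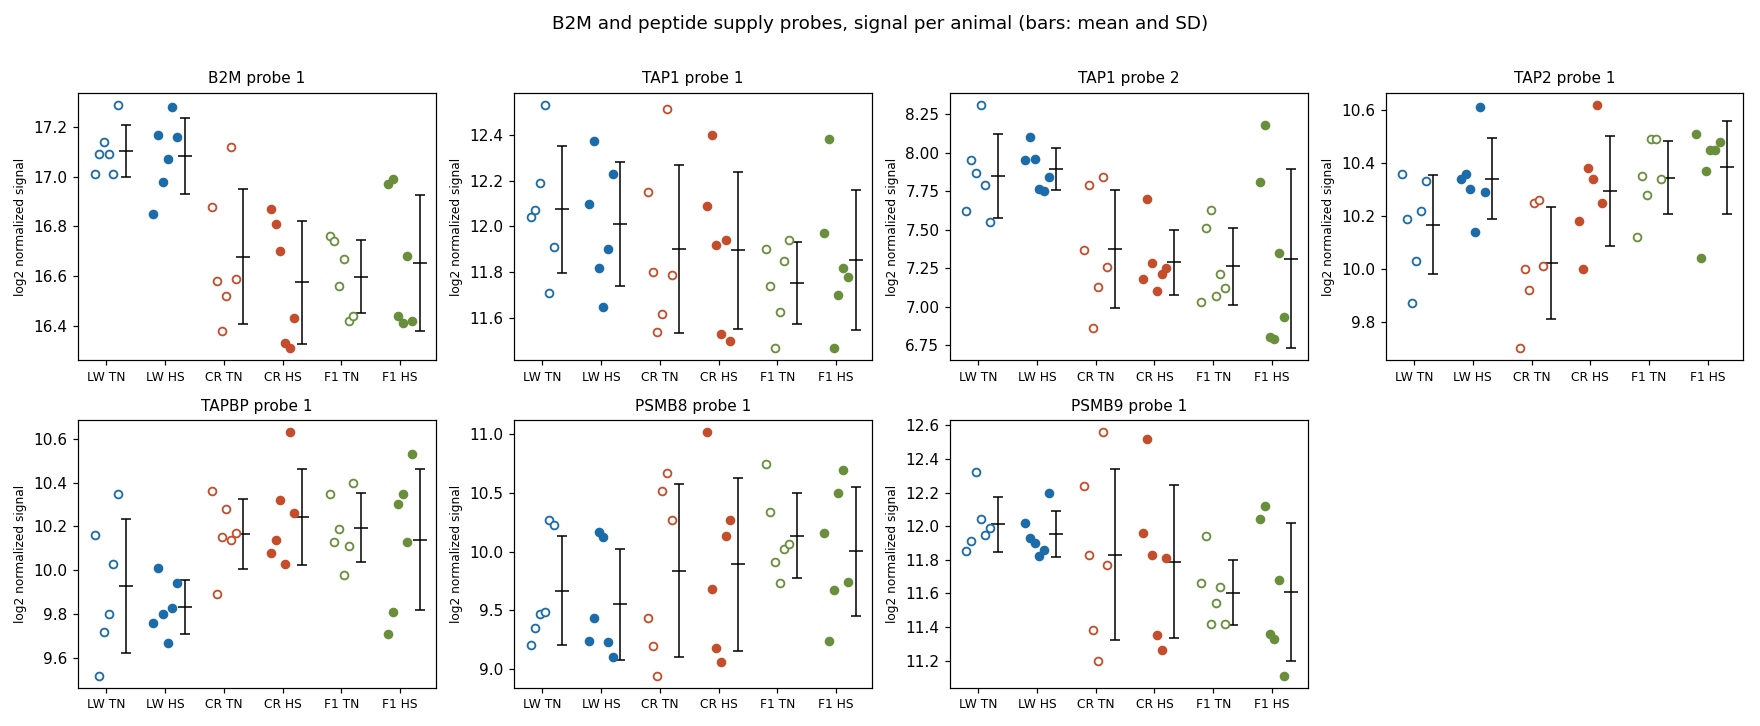
Log2 signal of the representative probes of B2M, TAP1, TAP2, TAPBP, PSMB8 and PSMB9, and of TAP1 probe 2, in each animal by breed and temperature, with open symbols for TN, filled symbols for HS, and bars for the mean and SD of 6 animals. B2M is lower and TAPBP higher in CR and F1 than in LW, and PSMB8 is widely spread in all breeds.

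PSMB8, a catalytic immunoproteasome subunit, was called at none of its 3 kept probes. At probe 1 the LW mean was 9.61 ± 0.451, the CR mean 9.86 ± 0.704 and the F1 mean 10.07 ± 0.449 (SD, n = 12), with single animals from 8.94 to 11.02 and differences of 0.26 and 0.46 (limma adjusted p = 0.411 and 0.133). The 3 probes followed each other closely (correlations of 0.963 or more), so an animal with a high signal at 1 probe had it at the others. PSMB9, another catalytic subunit, was called at both probes in F1 only. At probe 1 its signal was 11.85, 11.97 and 12.32 in LW TN and 11.82, 11.92 and 12.2 in LW HS, and 11.42, 11.59 and 11.94 in F1 TN and 11.11, 11.52 and 12.12 in F1 HS, with 9 of 12 F1 animals below all LW animals. The difference was -0.38 and -0.36 at the 2 probes (adjusted p = 0.0407 and 0.0421), and -0.49 and -0.48 without the 5 animals that stood apart. Slides 2 to 5 gave -0.71 to -0.32 at probe 1. Testing all probes without the filter ended both calls (adjusted p = 0.0526 and 0.0544), as did leaving out slide 2, 3, 4 or 5 (-0.40 to -0.28). So did leaving out 1 of F1 HS replicates 3, 4 and 6, F1 TN replicates 1, 3, 4 and 6, LW HS replicates 1, 2 and 6 and LW TN replicates 2 to 5, and at probe 2 also F1 HS 5 or LW HS 3 (-0.39 to -0.33). CR animals spread from 11.2 to 12.56 at PSMB9 probe 1, with 6 below and 2 above all LW animals, and the difference of -0.17 was not called.

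Whether CR and the cross differ was asked directly. None of the 34 probes was called in F1 against CR, where 1.5% of all kept probes were, and 5 passed an unadjusted p of 0.05 (12.5% of all), the smallest adjusted p being 0.109 for TAP2 probe 5. The 95% interval of the difference included 0 at 29 of 34 probes. It ran from -0.17 to 0.17 for B2M probe 1 and from -0.66 to 1.07 for HLA-E, so differences of that size are not excluded. SLA-6 was -0.26, and -0.44 without the 5 animals that stood apart.

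Against the mid-parent value, the 1 probe called was SLA-6, which was selected on this contrast, so that nothing is read from the count beside the 1.12% of all kept probes called. By unadjusted p, 21 of 34 were under 0.05 (15.2% of all), among them SLA-6 and all 13 B2M probes. B2M probe 1 differed by -0.24 (limma adjusted p = 0.0983) and HLA-E lay 2.01-fold below it. The count of called probes by adjusted p, 1 with all animals, depended on single animals of the cross. It was 9 without F1 HS replicate 2, 7 without F1 HS replicate 1, 5 without slide 1 and 0 without slide 3. Of all kept probes, 0.569% to 2.63% were called without 1 array and 0.123% to 2.19% without 1 slide. Without the 5 animals that stood apart, 17 of 34 probes were called, with 17% of all probes called. The called probes then included 10 of the 13 B2M probes at -0.44 to -0.31. The F1 animals left out all lay on the LW side, which can by itself move F1 from the mid-parent value.

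Heat stress left no called member. In HS against TN, with breed in the model, 0 of 34 probes were called, where 0.859% of all kept probes were. By unadjusted p, 3 of 34 were under 0.05, against 13.1% of all: TAP1 probe 3 at 0.17 (limma adjusted p = 0.181), TAP2 probe 1 at 0.16 (adjusted p = 0.197) and TAP2 probe 5 at -0.19 (adjusted p = 0.323). The median difference was -0.03, and 31 of 34 intervals included 0. For B2M probe 1 the difference was -0.02 with a 95% interval from -0.16 to 0.11, and for SLA-6 it was -0.13 with an interval from -0.37 to 0.11. For HLA-E it was -0.47 with a wide interval, from -1.17 to 0.24, and 5 of 18 HS animals lay above the TN mean of their breed. Within slides 2 to 5, on which the breeds were not equally split by temperature, the HLA-E difference ran from -1.29 to 0.44, and it was -0.23 without the 5 animals that stood apart.

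**Figure D4:**
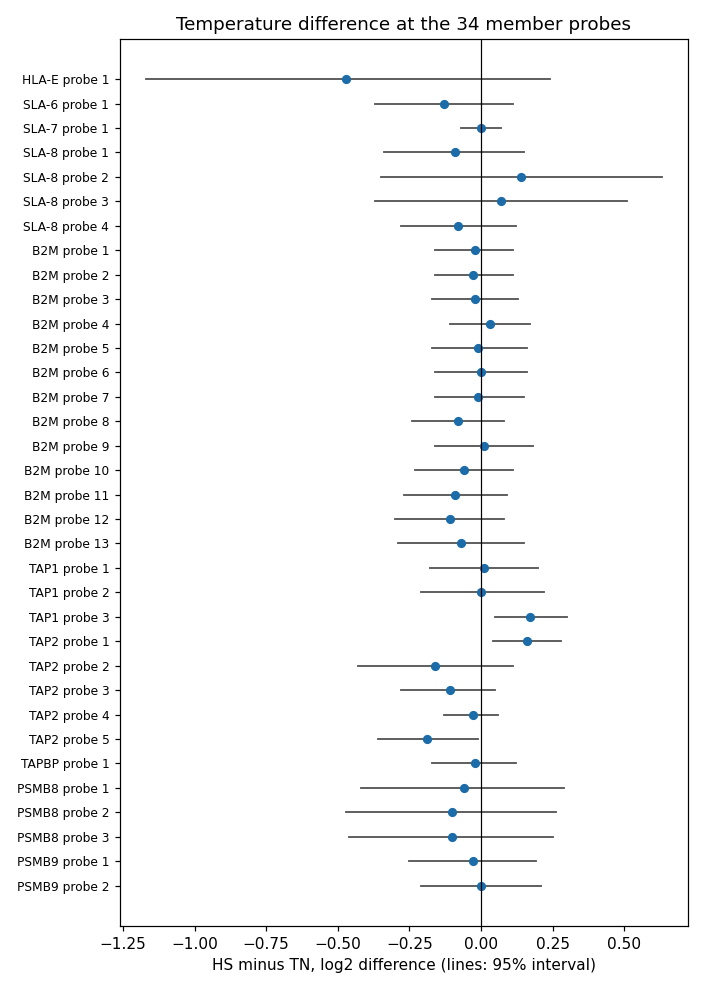
Difference between HS and TN of each of the 34 kept probes, in log2 units with breed in the model, with bars for the 95% interval. Intervals are narrow around 0 for B2M and wide for HLA-E.

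Within breeds no member probe was called either (0% of all kept probes in LW, 0% in CR and 0.00893% in F1). HLA-E differed by -0.06 among LW pigs, by 0.20 among CR pigs and by -1.54 among F1 pigs (unadjusted p = 0.0119 and limma adjusted p = 0.38 in F1). The breed by temperature interaction was called at 0 of 34 members and 0% of all probes, and 0 of 34 members had an unadjusted p under 0.05 against 3.74% of all. For HLA-E its unadjusted p was 0.087.

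Other genes of the pathway were taken from lists and read at the brightest probe of each gene, at which 25.9% of all 10641 genes were called in CR against LW, 17.6% in F1 against LW and 0.949% in HS against TN. No listed gene was called in HS against TN. By that reading 5 of the 10 members were called in each breed comparison, TAPBP higher and the others lower, with the selected genes HLA-E and SLA-6 among them. The classical class I chain SLA-1 fell by 0.45 in CR (adjusted p = 0.000665) and by 0.56 in F1 (adjusted p = 0.000262), and SLA-5 by 0.43 in CR (adjusted p = 0.0113), out of 3 further heavy chains measured. Of all kept probes of SLA-1, 3 of 7 were called in each comparison, and of those of SLA-5, 1 of 2 in CR and 0 in F1. The third, SLA-3, was not called at its brightest probe (-0.42, adjusted p = 0.0544, in CR and -0.12 in F1), but 7 of its 8 kept probes were called in CR against LW, 3 in F1 against LW and 5 in F1 against CR. The class I-like molecules PROCR (-0.54 and -0.37) and FCGRT, the neonatal Fc receptor (-0.26 and -0.29), were lower in both comparisons. CD1D, which presents lipids, was lower in CR (-0.45), and MIC2 higher in F1 (0.36).

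Of 7 measured genes for peptide trimming and loading, ERAP1, the aminopeptidase that trims peptides, was the single one called, at 0.27 in CR and 0.24 in F1. Of 7 further proteasome genes, PSMB6 was higher in CR (0.36) and the activator subunit PSME1 lower in F1 (-0.16). Among 16 regulators of class I genes, 4 were called in CR (3 higher and 1 lower) and 2 in F1 (2 higher), a share no higher than that over all genes. IFNGR2, a subunit of the interferon gamma receptor, was 0.35 and 0.29 higher and the transcription factor IRF2 0.31 and 0.27 higher. STAT2 was 0.23 higher in CR, with 2 of its 6 kept probes called. NLRC5, the class I transactivator, was not called, at -0.13 and -0.04. Of 25 interferon-stimulated genes, 8 were lower and 1 higher in CR, among them ISG12(A) at -2.02, XAF1 at -1.61 and IFIT2 at -0.98. In F1 7 were lower and 1 higher, with XAF1 at -0.82, IFIT3 at -0.63 and MX2 at 0.65. Class II molecules, which present peptides on immune cells, were lower for 7 of 9 genes in CR (median -0.39) and 4 of 9 in F1 (median -0.30), with SLA-DOA at -0.57 and -0.64.

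Markers of immune cells moved with the same breeds. Macrophage markers were lower for 8 of 10 measured genes in CR (median -0.84, CD163 at -1.16) and for 8 of 10 in F1 (median -0.62, LYZ at -0.83). Their mean log2 signal was 11.11 to 11.73 in LW, 10.46 to 11.05 in CR and 10.5 to 11.45 in F1, so that LW and CR animals did not overlap. Lymphocyte markers were lower for 8 and higher for 1 of 16 in CR (median -0.32, KLRK1 at -0.87), with mean signals of 7.11 to 7.62 in LW, 6.84 to 7.29 in CR and 6.92 to 7.33 in F1, and lower for 7 and higher for 1 of 16 in F1. Endothelial markers were lower for 5 of 6 in CR and 3 of 6 in F1, at 8.87 to 9.5 in LW, 8.54 to 9.13 in CR and 8.63 to 9.12 in F1. Hepatocyte markers, the check of the labelled tissue, were bright in every animal (17.54 to 17.73 in LW, 17.48 to 17.69 in CR and 17.59 to 17.75 in F1), with a median difference of -0.01 in both comparisons 2 of 10 lower in CR and 1 of 10 higher in F1. Of the listed markers, GZMA, PRF1 and STAB2 had no probe above the filter, and KLRB1, MARCO and ITGAM had no probe found by name. In bulk liver fewer cells of a type and less RNA per cell cannot be told apart. The part of these markers in the breed differences of the members was not tested.

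**Figure D5:**
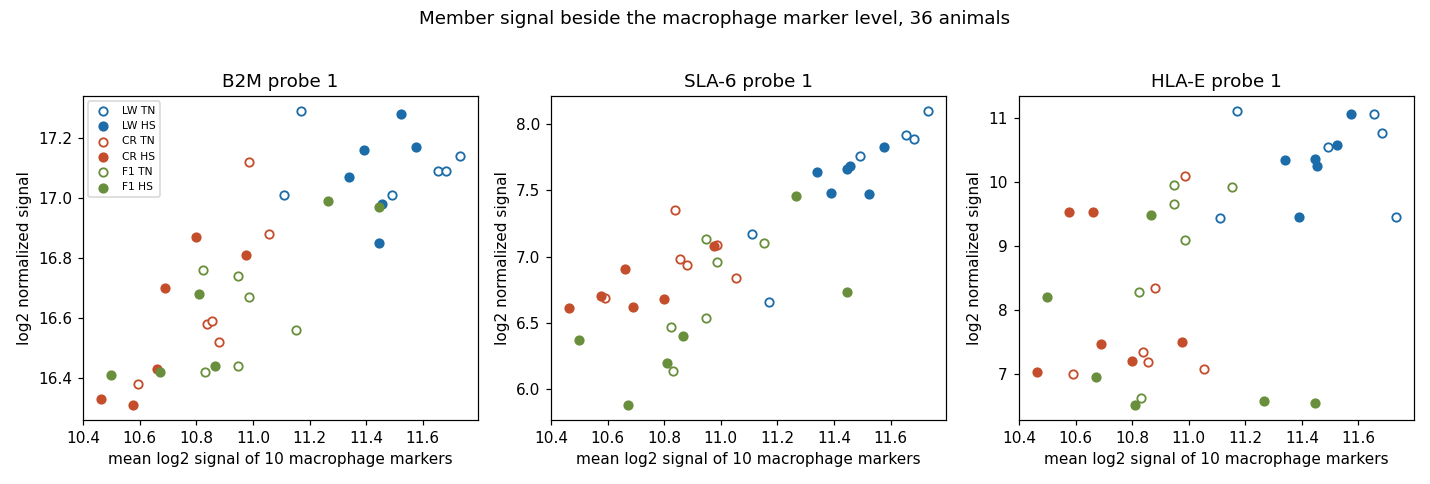
Log2 signal of B2M, SLA-6 and HLA-E against the mean log2 signal of 10 macrophage markers in 36 animals, coloured by breed, with open symbols for TN and filled symbols for HS. B2M and SLA-6 have higher values in animals with a higher marker signal, with correlations of 0.826 and 0.821, and HLA-E has low and high animals at the same marker signal.

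Across the 36 animals, which share arrays and slides, the correlation with the mean macrophage marker signal was 0.821 for SLA-6, 0.826 for B2M and -0.736 for TAPBP, and 0.715, 0.592 and -0.596 once group means were removed. For HLA-E it was 0.581, and 0.000416 within groups, so its spread among animals of a breed did not follow these markers. PSMB9 had 0.564, and 0.614 within groups. These are descriptions of the same animals.

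Among the members themselves, B2M and PSMB9 had a correlation of 0.754 (0.806 within groups), TAP1 and PSMB9 0.732 (0.695) and B2M and TAP1 0.618 (0.619). SLA-6 and TAPBP ran in opposite directions at -0.739 (-0.654). HLA-E followed SLA-6 at 0.608 but at 0.164 within groups. SLA-8 and PSMB8 had 0.434, and 0.62 within groups. Over the 34 probes the median SD within groups was 0.277, and 31 of 34 exceeded the median of all kept probes.

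Of all named genes outside the members, those most similar to HLA-E over 36 animals by Pearson correlation were XAF1 (0.778), PDRG1 (0.774), NUDT9 (0.764), CDC26 (0.763) and OAZ3 (0.73). Among the genes most similar to B2M were IFIT3 (0.83), CASP1 (0.826), CXCR2 (0.824) and SLA-1 (0.821). TAP1 was most similar to LCP1 (0.728), CXCL9 (0.715), GBP6 (0.692), CD86 (0.68) and C15ORF48 (0.658). Of these, XAF1 and IFIT3 are known as interferon-stimulated genes, CXCL9 and GBP6 as interferon gamma targets, and CXCR2, LCP1 and CD86 as leukocyte genes.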

How the data were processed

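Liver RNA of 36 pigs was hybridised to 1-colour Agilent arrays. The authors deposited 1 scanner table per array from Feature Extraction 10.10.1.1, whose median spot signals are intensity values on a linear scale. The authors also deposited a table of quantile-normalized log2 values for 42051 probes, used as an alternative. Median spot signal was 70 to 92 per array, against a background of 18 to 25, and 39644 to 44025 spots per array were well above background. The number of arrays limits the precision.

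The median signals were log2 transformed and quantile normalized over 60306 non-control spots, and 107 non-uniform spots were set as missing (limma 3.58.1, R 4.3.3). Probes well above background on 6 or more of 36 arrays were kept. Breed and temperature were fitted as additive effects over all arrays with moderated two-sided tests, and the interaction in a model of 6 group means. The pen, slaughter day and parent effects of the study's model are missing from the labels and were left out. Groups came from the labels. The representative probe of a gene is its brightest kept probe. All members are named, with at most 3 called genes of a list in each breed comparison and the 5 most similar genes, of which 1 is not reported here. SLA-3 and NLRC5 are named besides this rule, after their values were seen. Members and lists were chosen with earlier results of these data known. Scripts were tested on simulated data. Alternatives were the processed signal scaled to the 75th percentile, normexp with an offset of 50, other filters, slide blocks, array weights, 1 value per gene and leaving out arrays or slides.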

Additional observations from a re-analysis of the deposited data

Results flagged for a closer look

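In 84 groups of 6 animals (14 probes in 6 groups), 4 held an animal whose gap to its nearest neighbour, divided by the range of the group, was above Dixon's 95% critical value. Chance marks about 5% of groups. At SLA-8 probe 1, F1 HS replicate 4 was lowest at 10.26, with the other animals at 10.77 to 10.94 (gap share 0.743). At TAP2 probe 1, F1 HS replicate 2 was lowest at 10.04, with the others at 10.37 to 10.51 (0.702). At TAP1 probe 2, CR HS replicate 2 was highest at 7.7, with the others at 7.1 to 7.28 (0.689). At TAP2 probe 2, LW TN replicate 4 was highest at 11.15, with the others at 10.13 to 10.43 (0.703).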

How the results depend on the processing

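HS against TN and the interaction had 0 called member probes under every alternative run. In HS against TN, 0.451% to 1.18% of all probes were called without 1 array and 0.156% to 0.33% without 1 slide. For the interaction these shares were 0%. A count of 0 among 34 probes is near such shares. With 1 array left out, the count of called probes was 17 to 22 for CR against LW, 19 to 23 for F1 against LW, 0 for F1 against CR and 1 to 9 for F1 against the mid-parent value. The shares over all probes were 23.7% to 28.3%, 14% to 22%, 1.07% to 1.61% and 0.569% to 2.63%. With 1 slide left out, the count was 12 to 21, 12 to 23, 0 and 0 to 5. Here the shares over all probes were 12.7% to 25.2%, 3.52% to 20.3%, 0.268% to 1.54% and 0.123% to 2.19%. Under the other settings the count was 18 to 20 for CR and 21 to 24 for F1 against LW. The share over all probes was not the same in these settings. Without the 5 animals that stood apart it was above the 26.5% and 18.4% of the main fit. A steady count is therefore not a steady excess over all probes. With 1 value per gene symbol, 6 of 10 genes were called in CR and 7 of 10 in F1 (26.3% and 17% of all genes), and TAP2 probe 1 reversed from 0.11 to -0.26 in F1 (adjusted p = 0.0116), since that value averages all TAP2 probes. The mid-parent count was 6 with array weights (3.27% of all probes called, and the cause was not tested) and 17 without the 5 animals that stood apart. Leaving those animals out also gave 1 call, SLA-6, in F1 against CR. That call is a description, since SLA-6 was selected on these F1 animals and the F1 animals left out all lay on the LW side. No paired analysis was possible because the labels do not give the litter. They carry no replicate numbers either, and replicates are numbered here in the order of the samples. Litter, pen and slaughter day could not be fitted.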
